A study of Rattus norvegicus with 20 samples.

Results

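The miR-23, miR-27 and miR-24 microRNAs (miRNAs) were followed in soleus muscle and dorsal root ganglia (DRGs) of rats with a denervated, an entrapped or a decompressed sciatic nerve. Members were the miRNAs that the array files list as rno-miR-23a, rno-miR-23b, rno-miR-24, rno-miR-27a and rno-miR-27b, which made 5 of the 348 rat miRNAs listed under the same name on all 20 arrays. All 5 were called detected by the scanner software on 20 of 20 arrays. Each array was a single-colour Agilent rat miRNA array hybridised with Cy3-labelled total RNA, and its total gene signal is the fluorescence summed over all spots of a miRNA after background subtraction.

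All tissue came from male Sprague-Dawley rats. In the denervation group the sciatic nerve had been severed, a piece removed and the stump ligated, and tissue was taken at 6 months. In the entrapment group a non-constrictive silastic tube had been placed around the nerve for 6 months, and in the decompression group the tube was taken off after 6 months and tissue followed 3 months later. Sham rats had surgery without nerve injury. Each tissue had 1 sham array and 3 arrays for each of the 3 injury groups, and the DRGs were those of L4 to L6. The sham arrays carry no time point in the labels, so age and injury cannot be told apart in comparisons with sham. Decompression tissue was taken 3 months later after the first operation than denervation or entrapment tissue, so time and decompression cannot be told apart either. The labels number the arrays as biological replicates, and whether RNA of several rats was pooled on the sham array is not given in the sources used here.

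The members come from paired hairpin clusters, in each of which a miR-23, a miR-27 and a miR-24 hairpin lie side by side and are transcribed together. Each mature miRNA pairs with messenger RNAs mainly through its seed, the bases near its 5′ end, so members with the same seed tend to share targets. The clusters are best known from endothelial cells and vessel growth, and from muscle, where miR-23a is known to repress atrophy-related ubiquitin ligases and miR-27 the transcription factor Pax3. In RefSeq's rat build GRCr8, the cluster of miR-23a lies at chr19:40859455-40859843 on the minus strand, holds Mir23a, Mir27a and Mir24-2 in that order of transcription and overlaps no other annotated gene. The cluster of miR-23b lies at chr17:1818669-1819482 on the minus strand, holds Mir23b, Mir27b and Mir24-1, and lies within the span of the gene Aopep at chr17:1817001-2133008. Its downstream end also overlaps Mir3074 and the last bases of the Fancc span, and no exons were given with these spans.

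The mature sequences are shown because they define which members share a seed and how little separates the a and b forms that the probes have to tell apart. Capitals mark the seed, bases 2 to 8 counted from 1 at the 5′ end. The first 2 lines share the miR-23 seed, the next 2 share the miR-27 seed, and the last 2 are both arms of the miR-24-2 hairpin.
miR-23a: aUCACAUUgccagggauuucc
miR-23b: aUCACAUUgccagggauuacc
miR-27a: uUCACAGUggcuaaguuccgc
miR-27b: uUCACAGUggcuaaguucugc
miR-24: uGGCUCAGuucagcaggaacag
miR-24-2*: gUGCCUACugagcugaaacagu
miR-23a and miR-23b differed at 1 of 21 bases (U19A, miR-23a first, counted from 1 at the 5′ end). miR-27a and miR-27b also differed at 1 of 21 bases (C19U, miR-27a first). The miR-23 and miR-27 seeds began with the same 5 bases. miR-24 has 1 mature sequence from both clusters, so its signal cannot be assigned to either. In contrast, miR-24-2* (miR-24-2-5p in RefSeq) is the other strand of the hairpin on chromosome 19 and reports on that cluster alone, except as far as miR-24-1*, which has the same seed, binds the same probe. Probe sequences were not used here, and how well a probe separates molecules that differ by 1 base was not tested.

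The arrays of the groups differed in overall signal and in file format, which bears on every level below. In soleus, the 75th percentile of signal (taken across the 108 miRNAs that every soleus array detected) ranged from 409 to 2539, a 6.20-fold range with the sham array lowest, whereas in the DRGs the percentile across all miRNAs ranged from 72.0 to 117. Levels are therefore given as scaled signal, with that percentile set to 100 on each array, and values of different tissues are on different scales unless stated. The soleus sham, denervation 1 and denervation 2 files shared a layout that the other files did not have. In addition, the sham and denervation arrays did not overlap the entrapment and decompression arrays in 12 of 45 control features in soleus and 24 of 45 in the DRGs, so injury and array handling cannot be told apart between these sets. In the authors' processed table, 6 DRG columns named for entrapment or decompression held the values of a scanner file labelled with the other of these groups, and the labels of the scanner files were kept here. Of the defining markers of neurons (miR-183, miR-96, miR-182, miR-124, miR-9 and miR-138), 6 of 6 passed the detection filter (detected on at least 3 of 10 arrays) in the DRGs and 0 of 6 in soleus. Summed muscle miRNA signal (miR-1, miR-133a, miR-133b, miR-206, miR-499 and miR-208) lay between 5432 and 33012 in soleus. In the DRGs, on their own scale, it lay between 289 and 459, and 5 of these 6 miRNAs were detected in every group. In bulk tissue, fewer cells of a type and less RNA per cell cannot be told apart.

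The clearest pattern was that the a and b forms of a seed family stood differently in both tissues. The difference between 2 members on the same array needs no scaling, and only its change between groups was compared, because 2 probes bind unequally. The log2 signal of miR-23a minus that of miR-23b lay between 0.03 and 1.16 on the 10 soleus arrays, with a median of 0.55. On the 10 DRG arrays it lay between -0.75 and -0.31, with a median of -0.68. Every soleus array was thus above every DRG array, and the means differed by 1.26 log2 units (two-sided permutation test with 100000 resamples, p = 6e-05, Benjamini-Hochberg adjusted p = 0.0014 over 28 within-array tests).

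miR-27a and miR-27b, of the same 2 clusters, moved likewise. miR-27a minus miR-27b had a mean of 1.01 ± 0.45 (SD, n = 10 arrays) in soleus and 0.11 ± 0.06 (SD, n = 10 arrays) in the DRGs, a difference of 0.91 (permutation test, p = 0.0001, adjusted p = 0.0014). The ranges overlapped, since soleus reached down to 0.11 on denervation 1 and the DRGs up to 0.18. In both families, therefore, the form from chromosome 19 stood higher against its chromosome 17 counterpart in muscle than in ganglia. Between the tissues, limma called 83.0% of the 230 miRNAs tested. How many other pairs of miRNAs shift as much between the tissues was not tested. The 10 arrays of a tissue come from 4 groups, and each tissue was hybridised on arrays of its own, so tissue and array series cannot be told apart. The study's methods describe DRGs and muscles taken from the rats of each group, so both tissues may come from the same rats. All tests between tissues treated the arrays as independent.

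Members of the same cluster differed less between tissues. miR-23a minus miR-27a differed by 0.31 log2 units between soleus and DRGs (permutation test, p = 0.155, adjusted p = 0.334). For miR-23b minus miR-27b the difference was -0.05 (p = 0.621, adjusted p = 0.869, permutation test). Both contrasts left the tissues overlapping. These averages pool groups in which the tissues differed in opposite directions. miR-23b minus miR-27b had means of 0.80 in soleus and 0.33 in DRGs after denervation. After entrapment these were 0.33 and 0.59, and after decompression 0.25 and 0.58. miR-23a minus miR-27a had means of 0.83 and -0.23 after denervation, and -0.54 and -0.26 on the sham arrays.

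**Figure D1:**
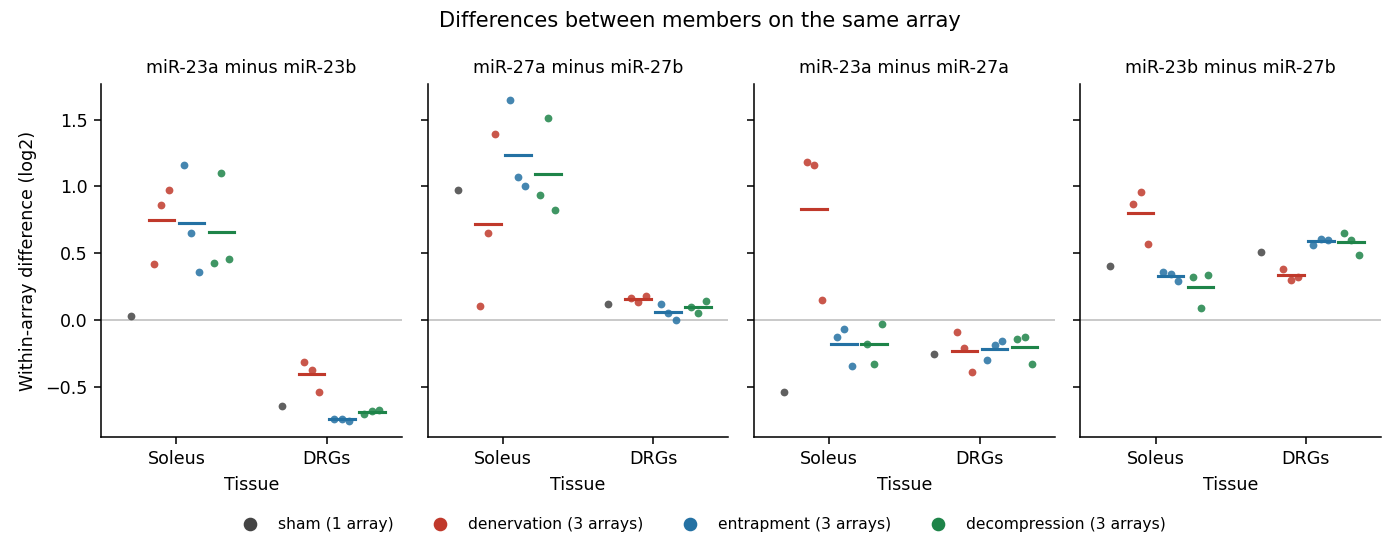
Within-array log2 differences between members (y axis) on every soleus and DRG array (x axis), 1 panel per pair, with points for arrays coloured by group and bars for the mean of 3 arrays. miR-23a minus miR-23b lies between 0.03 and 1.16 on the soleus arrays and between -0.75 and -0.31 on the DRG arrays, and miR-23b minus miR-27b moves in opposite directions between denervation and the entrapped groups in soleus and DRGs.

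Within a tissue, the pairs of the same cluster separated denervation from entrapment and decompression in soleus. In denervated soleus, miR-23a minus miR-27a was 1.18, 1.16 and 0.15 on denervation 1 to 3. Entrapped muscle gave -0.18 ± 0.15 (SD, n = 3), decompressed muscle -0.18 ± 0.15 (SD, n = 3) and the sham array -0.54. Neither group overlapped denervation, and the differences from denervation were -1.02 and -1.01 log2 units (exact permutation test, two-sided p = 0.1 for each, the smallest that 3 against 3 arrays allow).

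The b cluster showed the same order. miR-23b minus miR-27b was 0.80 ± 0.20 (SD, n = 3) in denervated soleus. Entrapped muscle was at 0.33 ± 0.03 (SD, n = 3), decompressed muscle at 0.25 ± 0.14 (SD, n = 3) and the sham array at 0.41. Again neither group overlapped denervation (exact permutation test, p = 0.1 for each). The sham value fell below all 3 denervation arrays, whose lowest was 0.57, and above all entrapment and decompression arrays, whose highest was 0.36. Hence, in both clusters, miR-27 stood lower against miR-23 in denervated muscle than on any array of the other groups. Denervation 3, whose file did not share the layout of the sham file, lay closest to those groups in both clusters. How many pairs of other miRNAs separate these soleus groups likewise was not tested.

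In the DRGs, the b cluster moved the other way. miR-23b minus miR-27b was 0.33 ± 0.04 (SD, n = 3) after denervation. It was higher, at 0.59 ± 0.02 (SD, n = 3), with the nerve entrapped and at 0.58 ± 0.08 (SD, n = 3) once decompressed, and the sham array gave 0.51. The shift from denervation therefore differed between tissues by -0.72 log2 units for entrapment and by -0.80 for decompression (exact permutation test with group labels permuted within each tissue over 400 relabellings, p = 0.005 and adjusted p = 0.03 over 12 tests for each, a test added after the values were seen). For miR-23a minus miR-27a the shifts differed by -1.03 and -1.04, which did not pass the adjustment (exact permutation test, p = 0.045 and p = 0.04, adjusted p = 0.135 for each).

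The paralogue pair in the DRGs also differed between injury groups. miR-23a minus miR-23b was -0.41 ± 0.12 (SD, n = 3) after denervation. Entrapment gave -0.75 ± 0.01 (SD, n = 3), decompression -0.69 ± 0.01 (SD, n = 3) and sham -0.65. Denervation overlapped neither of the other groups (exact permutation test, p = 0.1 for each). Entrapment and decompression, 0.06 apart, did not overlap each other either. In soleus the same pair had means of 0.75, 0.72 and 0.66 after denervation, entrapment and decompression, with overlapping arrays and exact permutation p of at least 0.9. Its sham value of 0.03 was below all 9 injury arrays. How many pairs of other miRNAs separate the DRG groups likewise was not tested.

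The scaled levels in soleus were spread widely within groups, and no member passed the test in any of the 6 comparisons. miR-23a reached a scaled signal of 171 in sham muscle, 244, 305 and 342 on denervation 1 to 3, 414, 311 and 281 on entrapment 1 to 3, and 309, 646 and 247 on decompression 1 to 3. All 9 injury arrays were above sham, and decompression 2 stood far above the rest. miR-24, which both clusters produce, was at 111 on the sham array, 147, 149 and 246 after denervation, 299, 245 and 242 after entrapment, and 264, 503 and 202 after decompression. Here, too, all 9 injury arrays were above sham and decompression 2 was highest.

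miR-27a, known to restrain Pax3 in muscle progenitors, was at 249 on the sham array, 108, 136 and 308 after denervation, 452, 327 and 358 after entrapment, and 350, 811 and 253 after decompression. Denervation 1 and 2 were thus below sham while denervation 3 lay among the entrapment and decompression arrays. miR-27b was at 127 on the sham array, 99.8, 86.7 and 117 after denervation, 144, 156 and 179 after entrapment, and 183, 284 and 143 after decompression. All 3 denervation arrays were below sham, and all 6 entrapment and decompression arrays were above it. miR-23b varied least, with 168 on the sham array, 183, 168 and 174 after denervation, 185, 198 and 219 after entrapment, and 230, 302 and 181 after decompression.

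**Figure D2:**
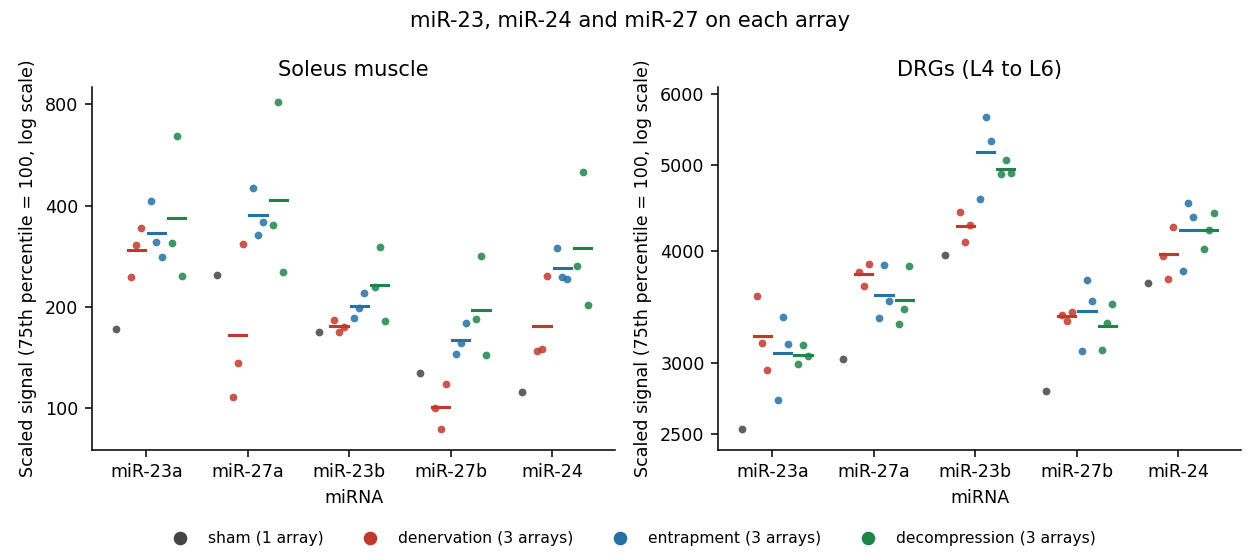
Scaled signal of each member (y axis, log scale, 75th percentile of the array set to 100 within each tissue) by miRNA (x axis) in soleus muscle and DRGs, with points for arrays coloured by group and bars for the geometric mean of 3 arrays. Decompression 2 is the highest soleus array for all 5 members, and in the DRGs the sham array is the lowest for each of them.

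On this scale, 5 of 5 members were above sham on all 6 entrapment and decompression arrays in soleus, where 26.0% of the 173 miRNAs tested were. On all 3 denervation arrays this held for miR-23a and miR-24, 2 of 5 members against 30.6% of all. These counts rest on the sham array alone and moved with the scaling. For entrapment and decompression the count was 5 without scaling and with median scaling, loess and the 75th percentile over all miRNAs, 4 with quantile normalization and 0 in the authors' processed table. The processed values put 5 of 5 members at least 2-fold above sham throughout entrapment, 0 throughout decompression, and 5 of 5 above sham on all 3 denervation arrays. In that table, scanner signals were divided by 1222 on soleus decompression 2 and by 38.7 to 100 on the other soleus arrays.

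limma with Benjamini-Hochberg adjustment over the 173 miRNAs called no member against sham after denervation (26.0% of all miRNAs called), entrapment (29.5%) or decompression (31.8%). Between injury groups it called no member for entrapment against denervation (11.6%), decompression against denervation (13.9%) or decompression against entrapment (0%, 0 miRNAs). At an unadjusted limma p under 0.05, the counts of members in these comparisons were 0, 1, 1, 1, 2 and 0. miR-24 was 1.23 log2 units above sham after entrapment (SE 0.53, adjusted p = 0.111) and 1.43 after decompression (SE 0.53, adjusted p = 0.068). miR-27a was 1.18 above denervation after entrapment (SE 0.50, adjusted p = 0.195) and 1.33 after decompression (SE 0.50, adjusted p = 0.118), and miR-27b was 0.96 above denervation after decompression (SE 0.30, adjusted p = 0.0662).

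The median difference over the 5 members was 0.06 after denervation, 0.59 after entrapment and 0.74 after decompression against sham, where the medians over all 173 miRNAs were -0.07, -0.37 and -0.29. Without scaling the members' medians were 1.54, 2.22 and 2.09, and without decompression 2 that of decompression was 0.35. The study's methods took a 2-fold change from sham. With this applied here to each of the 3 arrays on the scaled signal, miR-24 after entrapment was the 1 member called higher (11.0% of all miRNAs). No member was called higher after denervation (15.6%) or decompression (13.3%). Without scaling this rule called 2, 5 and 5 members higher after denervation, entrapment and decompression. miR-27b was the 1 member whose 6 entrapment and decompression arrays all lay above the sham and denervation arrays, which held for 1.73% of all miRNAs. This count was 5 when the 75th percentile was taken over all miRNAs, 2 with median scaling, and 0 without scaling, with quantile normalization, with loess and in the processed table.

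Several cell type markers moved among the same soleus arrays. The summed signal of vessel miRNAs (miR-126, miR-126*, miR-143 and miR-145) was 293 on the sham array, 211 to 288 after denervation, 233 to 335 after entrapment and 273 to 404 after decompression. All 4 passed the detection filter, and limma called miR-126 and miR-126* higher than sham in each of the 3 injury groups and miR-145 lower after entrapment and decompression. Of the wider list of 8 vascular miRNAs, 7 were tested, with 2 higher and 2 lower after entrapment and the same counts after decompression. The summed muscle miRNA signal was 18988 on the sham array, 9269 to 33012 after denervation, 5432 to 11063 after entrapment and 9582 to 9877 after decompression. For 5 leukocyte miRNAs the sum was 75.1 in sham and 57.5 to 92.7 in denervated muscle, above all entrapment (42.1 to 52.4) and decompression (38.0 to 52.5) arrays. The sum of the erythroid miR-144 and miR-451 was 114 in sham, 21.1 to 218 after denervation, 45.2 to 78.2 after entrapment and 18.9 to 116 after decompression. The part of these shifts in the members' levels was not tested.

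The DRG levels were tight by comparison. miR-23a measured 2533 on the scaled axis in sham DRGs, 3564, 3160 and 2948 after denervation, 2730, 3380 and 3152 after entrapment, and 2996, 3144 and 3055 after decompression. miR-23b was at 3964 on the sham array, 4427, 4101 and 4281 after denervation, 4573, 5650 and 5319 after entrapment, and 4879, 5052 and 4891 after decompression. The miR-23b arrays of entrapment and decompression all lay above those of sham and denervation, which held for 1 of 5 members and 7.31% of the 219 miRNAs tested. It held for 0 members without scaling, with median scaling, quantile normalization and loess, and in the processed table.

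miR-27a, miR-27b and miR-24 overlapped between all injury groups of the DRGs. miR-27a was at 3028 on the sham array and between 3317 and 3867 on the 9 injury arrays. miR-27b was at 2791 on the sham array and between 3093 and 3714 on the others, and miR-24 at 3687 and between 3721 and 4534. The sham array was lowest for each of the 5 members, which held for 15.1% of all miRNAs. It held for 5 members with median scaling and in the processed table, 3 with the percentile over miRNAs detected on all arrays, 1 with quantile normalization, 1 with loess and 0 without scaling. The summed signal of glial miRNAs (miR-338 and miR-219-5p) was likewise lowest on the sham array, at 9222 against 11343 to 14393 on the 9 injury arrays. That of 5 leukocyte miRNAs was 1186 on the sham array, 961 to 1520 after denervation, 732 to 864 after entrapment and 1022 to 1265 after decompression. In other lists the sham array was not lowest. The neuron sum was 5381 on the sham array and 4556 to 5549 on the others, and the vessel sum 1762 and 1499 to 2136. The erythroid sum (miR-144 and miR-451) was 3469 on the sham array, 793 to 1790 after denervation, 1009 to 3318 after entrapment and 1631 to 4905 after decompression. The part of these shifts in the members' levels was not tested.

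limma called 1 member in the DRGs, miR-23b, which was higher after entrapment than after denervation by 0.27 log2 units (SE 0.09, adjusted p = 0.0408), where 41.1% of all 219 miRNAs were called. This call was lost with median scaling, quantile normalization and the authors' processed values (0.15 to 0.21 log2 units), and without scaling the difference was -0.17. The processed columns named for entrapment held the values of scanner files labelled decompression, so that alternative compared other arrays. The call was also lost, with the difference still at 0.27, under the replicate block and in the fit of only both groups, and in 8 of the 9 leave-one-out fits, in which the difference was 0.21 to 0.30. No member was called for denervation against sham (0.457% of all), entrapment against sham (19.6%), decompression against sham (18.3%), decompression against denervation (36.5%) or decompression against entrapment (0%). The counts of members at an unadjusted limma p under 0.05 were 2, 2, 1, 1 and 0 in this order.

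At the unadjusted level, miR-23a and miR-27a were 0.34 (SE 0.15, adjusted p = 0.290) and 0.32 (SE 0.12, adjusted p = 0.227) above sham after denervation. miR-23b and miR-27b were 0.38 (SE 0.13, adjusted p = 0.0635) and 0.30 (SE 0.12, adjusted p = 0.116) above sham after entrapment. miR-23b was 0.32 above sham (SE 0.13, adjusted p = 0.109) and 0.21 above denervation (SE 0.09, adjusted p = 0.101) after decompression. No member reached 2-fold above sham on each array of a DRG group, against 0.457%, 0% and 0% of all miRNAs for denervation, entrapment and decompression.

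The other strand of the miR-24-2 hairpin differed between injury groups in the DRGs. Strands written with an asterisk are the arms that are less often loaded into the silencing complex. Of the 6 possible other strands, 4 are on the array. miR-24-2* was detected on 20 of 20 arrays and miR-23a* on 2, while miR-24-1* and miR-27a* were not called detected on any, so 1 of 4 was tested. In the DRGs miR-24-2* was at a scaled 94.2 in sham, 116, 113 and 106 after denervation, 56.6, 61.0 and 58.9 after entrapment, and 57.0, 56.1 and 63.2 after decompression. All 6 entrapment and decompression arrays lay below the sham and denervation arrays, with no overlap, which held for 59 of the 219 miRNAs tested.

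miR-24-2* was 0.92 log2 units lower after entrapment than after denervation (SE 0.08, adjusted p = 3.8e-05, limma). It was also 0.93 lower after decompression than after denervation (log2 difference -0.93, SE 0.08, adjusted p = 4.34e-05, limma). Against sham the log2 differences were -0.68 after entrapment (SE 0.11, adjusted p = 0.00319) and -0.68 after decompression (SE 0.11, adjusted p = 0.00257), the latter with adjusted p = 0.0638 in the fit of only both groups. miR-24, the main strand of this hairpin and of Mir24-1, was not called in any of these comparisons. On the same array, miR-24-2* minus miR-24 was -5.15 ± 0.15 (SD, n = 3) after denervation and -5.29 in sham. Entrapment brought it to -6.17 ± 0.08 (SD, n = 3), and decompression left it at -6.17 ± 0.06 (SD, n = 3). This difference, which was chosen after the values were seen and was given no test, thus lay -1.01 and -1.02 log2 units from denervation without any scaling.

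The background of these arrays moved in the same direction. The unscaled signal of miR-24-2* was 93.9 on the sham array, 110 to 136 after denervation and 40.8 to 51.8 after entrapment or decompression. The undetected other strands miR-23a*, miR-24-1* and miR-27a* lay between -4.18 and 1.80 on the sham and denervation arrays and between -8.59 and -4.05 on the others. Of the 219 miRNAs, 72 were called lower and 18 higher after entrapment than after denervation. The part of background in the miR-24-2* difference was not tested.

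In soleus, miR-24-2* did not part from miR-24. Its scaled signal was 2.26 on the sham array, 3.48, 3.77 and 7.29 after denervation, 7.45, 5.35 and 5.24 after entrapment, and 5.45, 15.0 and 3.47 after decompression. All 9 injury arrays were above sham and decompression 2 was highest, as for miR-24. miR-24-2* minus miR-24 was -5.26 ± 0.17 (SD, n = 3), -5.46 ± 0.12 (SD, n = 3) and -5.51 ± 0.40 (SD, n = 3) in the 3 injury groups and -5.62 on the sham array. limma called miR-24-2* in 0 of 6 soleus comparisons with the scaling used here. Against sham it was called higher after entrapment (adjusted p = 0.0237, 0.0247 and 0.0392) and decompression (adjusted p = 0.0154, 0.0199 and 0.0271) with quantile normalization, loess and the 75th percentile over all miRNAs. Of the 173 miRNAs, 28, 16 and 33 were called higher after entrapment in these settings, and 31, 15 and 37 after decompression. The limma interaction of tissue with injury against sham, 1.88 log2 units for entrapment (SE 0.79, adjusted p = 0.0952) and 2.06 for decompression (adjusted p = 0.0624), did not pass the adjustment. It passed without scaling (4.06 and 3.92, adjusted p = 0.0236 and 0.0273), with the 75th percentile over all miRNAs (2.88 and 3.01, adjusted p = 0.00907 and 0.00538) and with quantile normalization (2.78 and 2.99, adjusted p = 0.00449 and 0.00256). The soleus comparisons with sham rest on 1 array, where the unscaled miR-24-2* signal was 9.26. Over all 230 miRNAs the interaction medians without scaling were 1.46 and 1.3, with 18 and 20 called higher and 0 lower. For entrapment, 43 were called higher and 15 lower with the percentile over all miRNAs, and 31 and 23 with quantile normalization. For decompression these counts were 49 and 23, and 34 and 32.

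**Figure D3:**
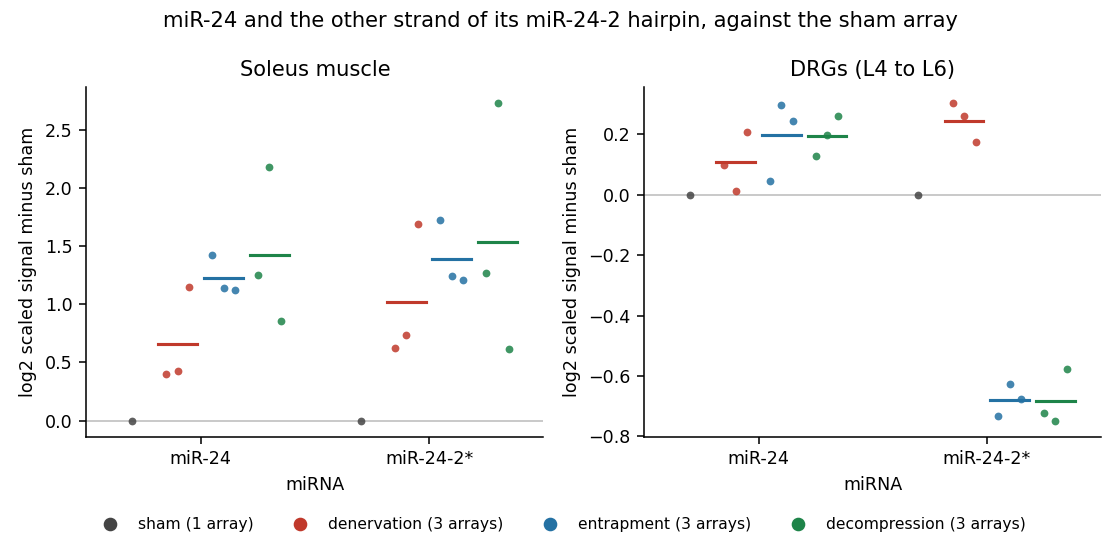
Log2 scaled signal minus that of the sham array (y axis) for miR-24 and miR-24-2* (x axis) in soleus muscle and DRGs, with points for arrays coloured by group and bars for the mean of 3 arrays. In the DRGs all 6 entrapment and decompression arrays of miR-24-2* lie below sham while all 9 injury arrays of miR-24 lie above it.

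All pairs of members were positively correlated over the arrays of a tissue, and how pairs of other miRNAs compare was not tested. Pearson's r of their log2 scaled signals over 10 arrays, which share scaling and groups, ranged from 0.59 to 0.91 over the 10 pairs in soleus and from 0.30 to 0.89 in the DRGs. The miRNAs whose pattern was most like the mean of the members in soleus were miR-24-2* (r = 0.91), miR-206 (r = 0.86), miR-29b (r = 0.85), miR-497 (r = 0.81) and miR-195 (r = 0.80), out of 103 detected on all 10 arrays. In the DRGs they were miR-497 (r = 0.94), miR-100 (r = 0.93), miR-10a-5p (r = 0.91), miR-30a* (r = 0.89) and miR-369-5p (r = 0.89), out of 168. miR-497 was in both lists. For single members in the DRGs, the nearest miRNA outside the members reached r = 0.87 (miR-101a to miR-23a) to 0.95 (miR-100 to miR-27b). For single members in soleus, miR-24-2* was nearest to miR-23a (r = 0.97), miR-24 (r = 0.96) and miR-23b (r = 0.75), whereas miR-206, a muscle miRNA, was nearest to miR-27a (r = 0.85) and miR-29a to miR-27b (r = 0.83).

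On a common scale over all 20 arrays, with the 75th percentile of the 102 miRNAs detected on all of them set to 100, the b forms and miR-24 were lower in soleus. miR-23b had a median of 179 on this scale in soleus (range 164 to 287) and 539 in the DRGs (range 411 to 601), so that no arrays overlapped. miR-27b had a median of 137 (range 84.8 to 270) against 363 (range 290 to 398). For miR-23a the medians were 292 (range 171 to 614) and 341 (range 263 to 357), and the ranges overlapped.

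limma called miR-23b (-1.39, SE 0.09, adjusted p = 1.98e-09), miR-27b (-1.33, SE 0.12, adjusted p = 6.97e-08) and miR-24 (-1.17, SE 0.16, adjusted p = 7.68e-06) lower in soleus than in DRGs, 3 of 5 members where 83.0% of the 230 miRNAs tested were called and the median log2 difference was -1.06. miR-23a (-0.22, SE 0.16, adjusted p = 0.212) and miR-27a (-0.43, SE 0.23, adjusted p = 0.0931) were not called, and both turned above 0 with median scaling and with the 75th percentile over all miRNAs. No member's group difference differed between the tissues in the limma interaction tests of the 20-array fit, for denervation (23.9% of all called), entrapment (27.8%) or decompression (28.3%) against sham, entrapment (9.13%) or decompression (12.2%) against denervation, or decompression against entrapment (0%). At an unadjusted p under 0.05, 2 members passed for decompression against denervation and 0 in the other 5.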

How the data were processed

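The 20 arrays (Agilent Rat miRNA) were read by the authors with Agilent Feature Extraction 9.5.3, and the deposited total gene signals are fluorescence intensities after background subtraction, summed per miRNA and not normalized between arrays. The deposited series table holds a processed signal of the same arrays, which served as an alternative. A constant per array (38.7 to 1222, the highest on soleus decompression 2) related every member value to the scanner files within 1%. It did so for all other values with a scanner signal of at least 20, except 19 on 8 soleus arrays. Lower values were not compared. The labels describe amplification with Cy3-CTP and the study's methods ligation of Cy3, and which was used is not known.

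Signals were divided by each array's 75th percentile (soleus: over the 108 miRNAs detected on all 10 arrays, DRGs: over all 348), set to 100, floored at the median over arrays of the lowest detected value (0.248 in soleus, 2.63 in the DRGs) and taken to log2. miRNAs detected on at least 3 of 10 arrays were tested, 173 in soleus and 219 in the DRGs, in 1 limma 3.58.1 fit per tissue (R 4.3.3, lmFit and eBayes, 6 residual degrees of freedom) with Benjamini-Hochberg adjustment at 0.05. The fit took the sham array's unseen spread to equal that of the injury groups. Tissues and interactions were tested in a 20-array limma fit (230 miRNAs). Within-array differences were tested by permutation over arrays (SciPy 1.17.1). The number of arrays limits the precision, and p-values measure the spread between arrays.

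The rule named all 5 members, the other strands of their hairpins, vascular and muscle miRNAs by count and the 5 nearest patterns per tissue by Pearson's r. The members and lists were chosen with earlier results of these data known. Mature sequences and loci came from RefSeq (GRCr8), where 8 array names matched. No 2 arrays held equal values. Same-numbered arrays of different injury groups deviated together in 1 of 9 pairs in soleus and 4 of 9 in the DRGs (correlation over 0.1). Replicate numbers were not taken to pair samples. Whether soleus and DRG arrays of the same number came from the same rat was not examined. Alternatives covered scaling, detection filter, floor, processed values, samples in the fit, prior variance, the replicate block and leaving out each injury array. The fit was tested on simulated data, in which 40 miRNAs of each tissue were changed by 2 log2 units in entrapment. In soleus it recovered 22 of 40 against sham, with 1 false call, and 30 of 40 against denervation. In the DRGs it recovered 37 and 39 of 40. Changes of this size or less in soleus can thus go uncalled.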

Additional observations from a re-analysis of the deposited data

Results flagged for a closer look

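The shift of miR-23b minus miR-27b from denervation differed between the tissues. For entrapment it was -0.47 log2 units in soleus and 0.25 in the DRGs, a difference of -0.72, and for decompression -0.55 and 0.25, a difference of -0.80 (exact permutation test within each tissue, p = 0.005 and adjusted p = 0.03 over 12 tests for each). The test was added after the values were seen, and 0.005 is the smallest p that its 400 relabellings allow. Both differences use the same denervation arrays, so they are not independent. The test also took soleus and DRG arrays as independent, though both tissues may come from the same rats. Every entrapment and decompression array lay below the 3 denervation arrays in soleus and above them in the DRGs, so all 6 arrays of each tissue showed its direction. How many pairs of other miRNAs do so was not tested. The adjusted p was 0.06 without soleus entrapment 1, 2 or 3, soleus decompression 2 or DRG denervation 2, each of which leaves fewer relabellings. The injury sets also differed in control features and file layout, whose part was not tested.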

How the results depend on the processing

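Counts of members called by limma moved with the scaling. With the 75th percentile over the other set of miRNAs, 4 members were called in soleus for entrapment and 4 for decompression against sham, 2 for entrapment and 4 for decompression against denervation, and 1 in the DRGs for entrapment against sham. Decompression against denervation in soleus gave 1 under median scaling, the pseudocount and the intensity trend, which also called 1 for decompression against sham in soleus and 1 for entrapment against sham in the DRGs. Fitting only both groups called 1 for entrapment against sham in soleus. For entrapment against denervation in the DRGs, the 1 call became 3 without scaling and 0 under median scaling, quantile normalization, the processed values, the fit of only both groups and the replicate block. Decompression against denervation in the DRGs gave 3 without scaling and 1 under loess. Over leave-one-out fits, the counts in soleus ranged from 0 to 1 for decompression against sham and for entrapment against denervation, and from 0 to 2 for decompression against denervation. In the DRGs they ranged from 0 to 2 for entrapment against sham, and from 0 to 1 for decompression against sham, entrapment against denervation and decompression against denervation. The soleus calls appeared without denervation 3 or decompression 3. In the DRGs the miR-23b call was kept without entrapment 1 alone. The replicate block changed no other count. Under the 2-fold rule in soleus, the members called higher numbered 2 after denervation, 5 after entrapment and 5 after decompression without scaling, 4 after denervation and 5 after entrapment in the processed values, 3 after entrapment and 4 after decompression with the 75th percentile over all miRNAs, and 1 after decompression with median scaling. Over leave-one-out fits they ranged from 0 to 1 after decompression (1 without decompression 3).

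Interaction counts of 0 became 2 (entrapment) and 4 (decompression) against sham and 3 and 4 against denervation with the 75th percentile over all miRNAs, and 1 and 1 against sham with quantile normalization. Values that turned sign were miR-27b in soleus for decompression against denervation (-0.26 in the processed values), and without scaling in the DRGs miR-27b for entrapment against sham (-0.056), and miR-23b for decompression against sham (-0.0244) and for entrapment (-0.17) and decompression (-0.22) against denervation. The soleus value includes decompression 2, whose constant in the processed table was 1222. Soleus minus DRG turned to 0.57 for miR-23a and 0.36 for miR-27a with the 75th percentile over all miRNAs, to 0.25 and 0.044 with median scaling, and to 0.061 for miR-23a with quantile normalization. In the DRGs, miR-23a minus miR-23b for decompression against entrapment was -0.0577 in the processed table, whose columns for these groups were exchanged.

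Only differences below an unadjusted p of 0.05 were followed singly, a choice made after the values were seen. Of all 60 member differences, 22 turned sign without scaling, 17 in the processed values, 13 with quantile normalization, 12 with loess and 5 with median scaling, 0 under the other percentile set, filters, floor, fits and the replicate block, and 0 to 6 of 30 per leave-one-out fit. The soleus medians against sham ranged over all alternatives from 0.03 to 2.00 for denervation, 0.39 to 2.78 for entrapment and 0.35 to 2.09 for decompression. Of the 12 medians over the 5 members, 4 turned sign without scaling, 4 in the processed values, 2 with median scaling, 2 with quantile normalization, 1 with loess and 0 to 2 per leave-one-out fit. The within-array paralogue differences between tissues kept their sign and ranged from 1.20 to 1.30 for miR-23 and from 0.84 to 1.01 for miR-27 over leave-one-out runs. miR-24-2* minus miR-24 in the DRGs shifted from denervation by -1.10 to -0.96 over leave-one-out runs. Without denervation 1 and 2, an alternative chosen after the data were seen, the fit gave the lone denervation array the spread of the other groups, and miR-27a was 0.29 (entrapment) and 0.43 (decompression) and miR-27b 0.74 (decompression) above denervation in soleus.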
